A study of Mus musculus with 16 samples.

Results

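The data described here are the mRNA levels of 10 mouse genes of fatty acid synthesis and desaturation (Srebf1, Acly, Acaca, Fasn, Scd1, Scd2, Elovl5, Elovl6, Fads1 and Fads2) in brain microvascular endothelial cells (mBMEC). The genes were chosen by name as the pathway from citrate to unsaturated fatty acids with its transcription factor, with earlier results of these data known. The reads of all transcripts of each gene were summed in 16 RNA-seq libraries. All 10 passed the filter on low counts, among 14838 genes tested and 54193 genes with a transcript in the files. The cells came from mice of 8 to 10 weeks that carried floxed Pdcd10, which encodes CCM3, and Cdh5 (PAC)-CreERT2, a Cre recombinase driven in endothelial cells and activated by 4-hydroxy-tamoxifen (4-OHT). KO cells had received 4-OHT and WT cells, which carried the same alleles, had not, so that loss of Ccm3 and exposure to 4-OHT cannot be told apart. Both were left untreated (WT, n = 3; KO, n = 3) or were exposed for 24 h to 10 µM propranolol, a beta-adrenergic blocker (WT+P, n = 2; KO+P, n = 3), or to 100 nM rapamycin, an inhibitor of mTORC1 (WT+R, n = 2; KO+R, n = 3). Each replicate was a culture pooled from several brains.

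Endothelial cells take up fatty acids from blood and also make them. ATP citrate lyase (Acly) releases acetyl-CoA from citrate, acetyl-CoA carboxylase (Acaca) turns it into malonyl-CoA, and fatty acid synthase (Fasn) builds palmitate from both. Elovl6 lengthens palmitate, the stearoyl-CoA desaturases Scd1 and Scd2 place a double bond in saturated acyl chains, and Fads1, Fads2 and Elovl5 desaturate and lengthen polyunsaturated chains from the diet. SREBP1, the product of Srebf1, is a membrane-bound precursor whose cleaved form enters the nucleus and drives most of these genes, while the related SREBP2 drives mainly cholesterol synthesis.

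The libraries held 18830000 to 26203000 estimated reads. Pdcd10, the targeted gene, was measured at 7.8 to 16.7 CPM (counts scaled to library size by TMM) in the 9 libraries of the KO groups and at 27.7 to 60.8 CPM in 6 of the 7 libraries of the WT groups. The library labelled WT replicate 1 held only 11.5 CPM of Pdcd10, within the range of the KO libraries and against its label, so the log2 differences from untreated WT are also given without it where it moves them. The 12 endothelial markers were all detected, at a summed level of 7988 to 16005 CPM. Markers of adipocytes, cells rich in lipid synthesis, summed to at most 2.12 CPM, with at least 4 of 7 genes at 0 in every library. Markers of oligodendrocytes, brain cells also rich in lipid synthesis, summed to 23.2 to 58.6 CPM, with at least 8 of 10 genes under 1 CPM in every library. Astrocyte markers summed to 32.8 to 110 CPM, fibroblast markers to 5.12 to 203 CPM and mural cell markers to 34.4 to 708 CPM. In bulk cultures fewer cells of a type and less RNA per cell cannot be told apart.

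On a scale per transcript length, in TPM (mean ± SD), the most abundant of the 10 mRNAs in untreated WT cells was Acly at 61.5 ± 7.21 TPM (n = 3). Elovl5 followed at 53.8 ± 6.13, Fasn at 53.4 ± 14.3, Srebf1 at 46.7 ± 3.06 and Scd2 at 46.7 ± 9.92 TPM. Each of these 5 overlapped its neighbour in the order. Fads1 at 27.6 ± 4.34 TPM lay below the lowest Scd2 library and overlapped Fads2 at 22.6 ± 9.38 TPM. Acaca at 6.46 ± 2.61 TPM lay apart from Fads2 but overlapped Scd1 at 2.34 ± 1.99 TPM, and Elovl6 at 1.3 ± 0.457 TPM was lowest. In untreated KO cells Scd2 headed the order, at 104.1 ± 28.3 TPM, with Fasn next at 86.1 ± 11.4 TPM and overlapping it. The rest kept their order, down to Elovl6 at 1.64 ± 0.396 TPM.

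Promoter sequences (250 bases before to 50 after each start) were taken from RefSeq (build GRCm38.p6) for 7 of the 10 genes, with 3 starts for Srebf1. Scd1, Scd2 and Fads1 had no entry. Only these annotated starts were searched, with 1 for Acaca, which has 9 transcripts in the files. The core of the sterol regulatory element bound by SREBPs, TCACNCCAC on either strand, was not found in these 9 windows, and 1.24% of 32851 promoters held it. The CCAAT box, bound by NF-Y, a partner of SREBPs at many lipid genes, was found in 37.4% of all promoters. It occurred 3 times in Fasn, 2 times in Elovl5, once in each of 2 Srebf1 promoters and once in Acly. CACGTG, an E-box, was found in Elovl5 and in 7.15% of all promoters. The 250 bases before the start are given for Fasn, which was higher with propranolol in every culture, for Elovl6, which was higher with propranolol and lower with rapamycin in every culture, and for Elovl5, which did neither. CCAAT on either strand is in capitals, with the sites of Fasn 90, 62 and 59 bases before the start, the last pair sharing bases. Elovl6 had none.
Fasn (chr11:120824548-120824797, minus strand): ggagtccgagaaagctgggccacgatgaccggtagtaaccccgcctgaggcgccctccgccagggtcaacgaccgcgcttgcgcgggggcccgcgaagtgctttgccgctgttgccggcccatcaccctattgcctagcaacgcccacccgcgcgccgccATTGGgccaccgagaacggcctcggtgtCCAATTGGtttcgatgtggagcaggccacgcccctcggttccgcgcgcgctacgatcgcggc
Elovl6 (chr3:129532136-129532385, plus strand): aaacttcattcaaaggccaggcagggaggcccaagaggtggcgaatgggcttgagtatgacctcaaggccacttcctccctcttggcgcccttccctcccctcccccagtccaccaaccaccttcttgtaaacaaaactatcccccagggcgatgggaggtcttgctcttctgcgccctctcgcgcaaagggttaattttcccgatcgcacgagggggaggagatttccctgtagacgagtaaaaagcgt
Elovl5 (chr9:77917115-77917364, plus strand): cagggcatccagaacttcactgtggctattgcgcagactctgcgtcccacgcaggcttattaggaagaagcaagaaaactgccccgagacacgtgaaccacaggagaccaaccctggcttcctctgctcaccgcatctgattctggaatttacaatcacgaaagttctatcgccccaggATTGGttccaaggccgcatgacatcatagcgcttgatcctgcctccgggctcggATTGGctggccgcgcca

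The first comparison asked what propranolol did to the pathway in KO and in WT cells. The level of 9 of the 10 mRNAs was above that of untreated cells on average in both genotypes, by 1.04-fold for Acly to 2.39-fold for Scd2 in KO cells, and Elovl5 was the exception. With edgeR's quasi-likelihood test over all genes, a call needed an adjusted p below 0.05 and a fold above 1.5. No member was called in either genotype, where 1 of 14838 genes (0.00674%) was called in each, and that gene was lower. Because 0 genes were called higher, the missing calls say little about the members. At an unadjusted p below 0.05, 6 members were higher in KO cells (6.93% of all genes) and 8 in WT cells (6.7%). With the replicate number as a block, Fasn alone was called higher in KO+P against KO, where 0.142% of all genes were called in either direction. Fasn alone was also called higher in WT+P against WT with the block, beside 0.0809% of all genes, although 2 numbered pairs are too few to check the pairing there. The blocked adjusted p in WT was 0.070 for Scd2, 0.075 for Acaca and 0.139 to 0.742 for the others.

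Fasn, whose product makes palmitate, lies at chr11:120696672-120715995 on the minus strand (GRCm39). It stood at 168.0, 238.5 and 187.7 CPM in the 3 KO libraries and at 275.2, 353.9 and 297.3 CPM in KO+P. In WT it was at 111.9, 163.8 and 140.1 CPM, and in WT+P at 229.0 and 294.1 CPM. The groups did not overlap in either genotype, and each culture was higher with the drug. The log2 difference was 0.64 (95% interval 0.16 to 1.12) in KO, with an adjusted p of 0.326, or 0.0158 with the replicate block. In WT it was 0.92 (0.39 to 1.45, adjusted p = 0.309, or 0.0204 with the block). It was 0.78 without the library labelled WT replicate 1 (adjusted p = 0.811), and then not called with the block either (adjusted p = 0.222). Acaca, the enzyme before it, lay between 24.2 and 45.9 CPM in WT and at 49.2 and 63.7 CPM in WT+P, a log2 difference of 0.70 (0.02 to 1.38, adjusted p = 0.495) that was 0.49 without the library labelled WT replicate 1. In KO cells Acaca overlapped between 42.9 to 62.1 CPM untreated and 52.8 to 76.5 CPM with the drug. Acly, which supplies the acetyl-CoA, was at 157.5 to 184.0 CPM in KO and 149.1 to 201.2 CPM in KO+P.

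Scd2 had the widest range of the 10 genes. This desaturase (chr19:44281613-44295303, plus strand) was at 374.1, 448.2 and 269.0 CPM in KO and at 713.9, 958.1 and 937.7 CPM in KO+P. It was at 128.7, 181.5 and 167.2 CPM in WT and at 606.3 and 699.3 CPM in WT+P. Every treated library lay above every untreated library of its genotype. The log2 difference was 1.26 (0.36 to 2.16) in KO and 2.04 (1.05 to 3.02) in WT, with adjusted p of 0.315 and 0.235. Without the library labelled WT replicate 1 the WT value was 1.90 (adjusted p = 0.811). Scd1, the neighbouring desaturase on chromosome 19 (minus strand), was far less abundant, at 12.6, 22.0 and 9.5 CPM in KO and 29.5, 47.1 and 22.8 CPM in KO+P. Its level differed widely between cultures, at 1.8, 13.7 and 5.4 CPM in WT, with 23.2 and 36.6 CPM in WT+P. The groups were again apart in both genotypes, but the log2 difference of 1.17 in KO had an interval of -0.49 to 2.84 (adjusted p = 0.536). In WT it was 2.09 (0.26 to 3.93, adjusted p = 0.475), and 1.64 without the library labelled WT replicate 1.

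Fads1 and Fads2, the desaturases of polyunsaturated chains, lie next to each other on chromosome 19. Fads1 (delta-5 desaturase) was at 62.5, 75.6 and 57.9 CPM in KO and at 146.0, 133.3 and 95.8 CPM in KO+P. In WT it was at 51.9, 56.4 and 60.7 CPM, and in WT+P at 147.0 and 88.8 CPM. The groups did not overlap, with log2 differences of 0.94 (0.50 to 1.37) in KO and 1.06 (0.59 to 1.54) in WT, and an adjusted p of 0.188 in each. Fads1 was called without KO+P replicate 3 (adjusted p = 0.025), its lowest treated library, when the genes called overall went from 1 to 332 (2.24%). Without WT+P replicate 2 its log2 difference in WT was 1.38 (adjusted p = 0.0154), but WT+P then held 1 library, which is assumed to vary like the other groups. Without the library labelled WT replicate 1 it was 1.00 (adjusted p = 0.771). Transcripts of Fads1 share 15.8% of their exonic bases with genes annotated on the other strand, and the libraries were unstranded, so the reads of the overlap cannot be told apart. Fads2 (delta-6 desaturase) was at 36.5, 49.1 and 24.9 CPM in KO and 83.3, 89.6 and 55.0 CPM in KO+P, without overlap. Its log2 difference was 1.04 (0.28 to 1.80, adjusted p = 0.325). In WT it was at 22.9, 46.4 and 43.1 CPM, and in WT+P at 92.2 and 75.5 CPM, a log2 difference of 1.16 (adjusted p = 0.420) that was 0.90 without the library labelled WT replicate 1.

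The elongases Elovl5 and Elovl6 differed from each other. Elovl6, of which only 35 to 339 reads were counted per library, was at 6.1, 7.1 and 4.7 CPM in KO and 10.8, 14.1 and 7.7 CPM in KO+P. It was at 3.1, 5.6 and 5.4 CPM in WT and 8.9 and 12.1 CPM in WT+P. Every treated library was above every untreated one, with log2 differences of 0.87 (0.18 to 1.56, adjusted p = 0.337) in KO and 1.16 (0.41 to 1.92, adjusted p = 0.372) in WT, or 0.93 without the library labelled WT replicate 1. Elovl5 was at 104.4, 101.3 and 96.6 CPM in KO and 85.4, 84.7 and 115.2 CPM in KO+P, and at 84.6 to 91.1 CPM in WT against 72.6 and 87.3 CPM in WT+P. Its groups overlapped in both genotypes, with intervals of -0.34 to 0.17 in KO and -0.42 to 0.16 in WT. Srebf1 itself was at 118.0 to 130.4 CPM in KO and 150.8 to 176.1 CPM in KO+P, a log2 difference of 0.38 (0.13 to 0.63, adjusted p = 0.297). In WT it went from 101.0 to 120.1 CPM up to 152.9 and 169.3 CPM with the drug, a log2 difference of 0.52 (adjusted p = 0.275), or 0.56 without the library labelled WT replicate 1. The fold, 1.30 and 1.43, was under the 1.5 that a call needed.

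Over the comparison, 7 of the 10 members did not overlap between KO+P and KO, all higher, where 9.58% of all tested genes did so. Between WT+P and WT 9 of 10 did, against 10.8%. The median log2 difference of the members was 0.75 in KO and 0.99 in WT, beside -0.01 and 0.00 for all tested genes. The interaction of propranolol and genotype was not called for any member in edgeR's test. Its smallest unadjusted p was that of Scd2 (0.226), whose log2 difference was smaller in KO than in WT, and all adjusted p were 0.9999. Endothelial markers moved along, with 11 of 12 below untreated in KO+P and 12 of 12 in WT+P and summed levels of 8520 to 12081 CPM in KO+P against 12368 to 13829 CPM in KO. The 10 proliferation genes had a median log2 difference of -1.25 in KO+P and -0.60 in WT+P, none called. Their part in the results was not tested.

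**Figure D1:**
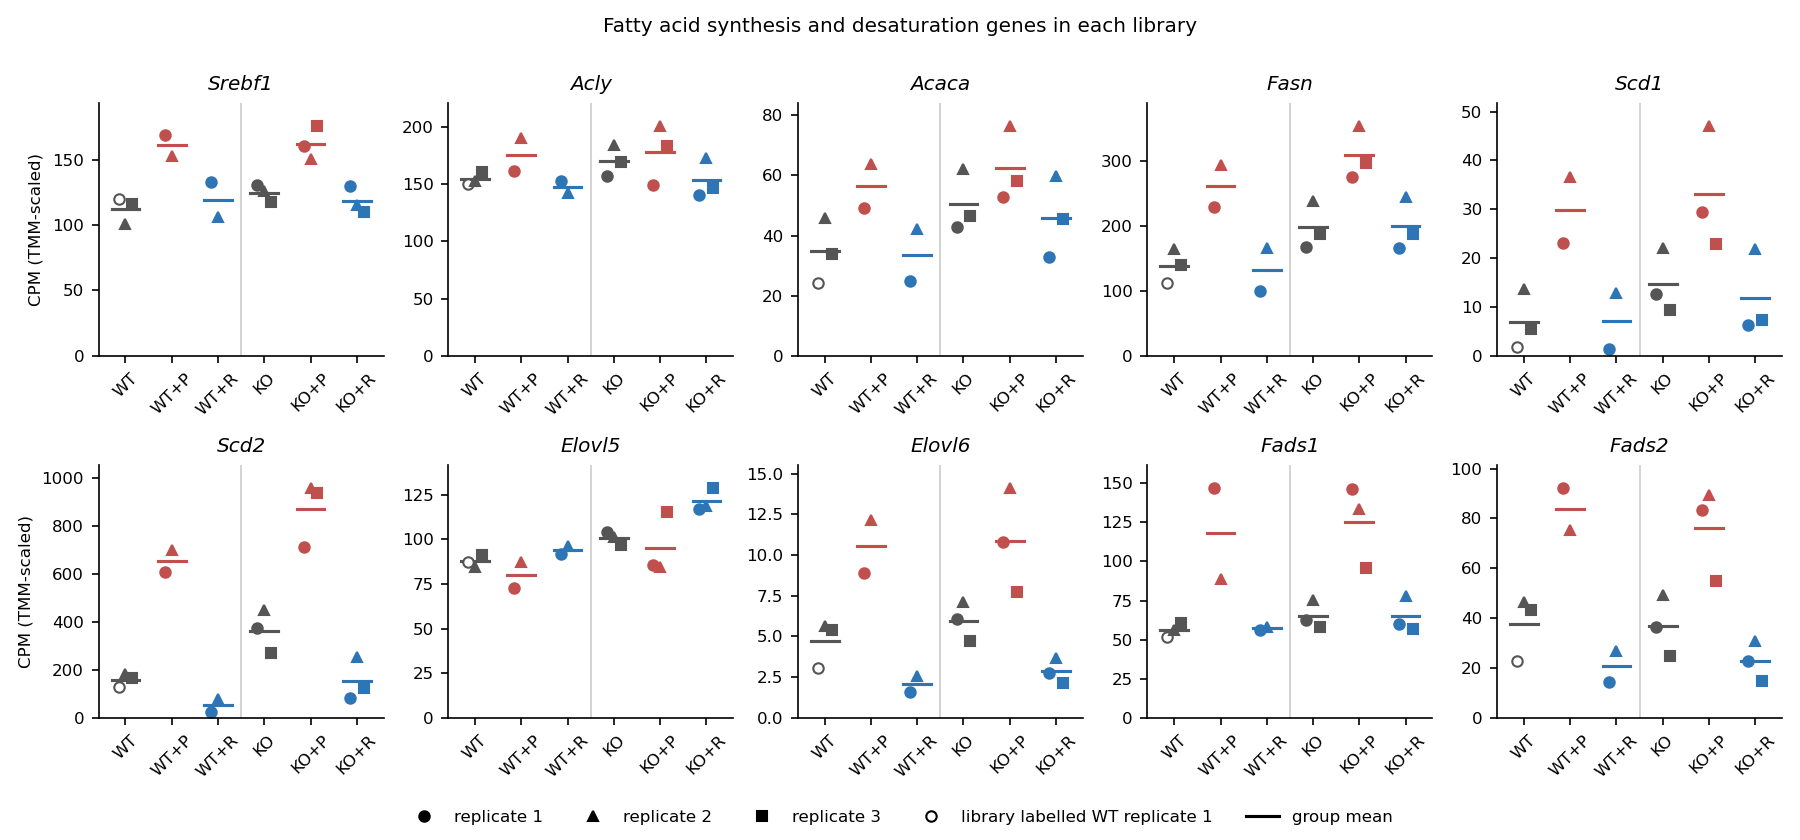
Level of each gene in each library, in CPM scaled by TMM factors on linear axes from 0. Markers stand for replicate numbers, bars for group means, red for propranolol, blue for rapamycin, grey for untreated, and the open circle for the library labelled WT replicate 1. Scd2, Fasn, Elovl6, Fads1 and Fads2 are above untreated in every propranolol library of both genotypes, and Scd2 and Elovl6 are below untreated in every rapamycin library.

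The second comparison asked the same of rapamycin. The response was narrower, with Scd2, Elovl6 and Fads2 lower on average in both genotypes and the other 7 within 1.24-fold of untreated cells. No member was called in edgeR's test in either genotype, where 1.51% of all genes were called in KO+R against KO and 1.4% in WT+R against WT. With the replicate block Scd2 and Elovl6 were called lower in KO cells, 2 of 10, where 3.04% of all genes were called lower. The same 2 were called lower in WT+R against WT with the block, where 2.39% were, again with only 2 numbered pairs.

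Scd2 was at 81.9, 252.1 and 122.6 CPM in KO+R, each below the lowest KO library at 269.0 CPM. Its log2 difference was -1.26 (-2.16 to -0.36, adjusted p = 0.195), or -1.37 with the replicate block (adjusted p = 0.0189). In WT+R it was at 25.8 and 78.9 CPM, below the lowest WT library at 128.7 CPM, with a log2 difference of -1.60 (-2.66 to -0.55, adjusted p = 0.140, or 0.0145 with the block) and of -1.74 without the library labelled WT replicate 1. The paired log2 differences within KO cultures ran from -2.19 in replicate 1 to -0.83 in replicate 2, all in 1 direction. Elovl6 was at 2.8, 3.7 and 2.1 CPM in KO+R and at 1.6 and 2.6 CPM in WT+R, below every untreated library of its genotype. Its log2 difference was -1.06 (-1.76 to -0.36, adjusted p = 0.156) in KO, or -1.07 with the replicate block (adjusted p = 0.0157). In WT it was -1.18 (-1.99 to -0.37, adjusted p = 0.163, or 0.0169 with the block). Leaving out the library labelled WT replicate 1 gave -1.41 (adjusted p = 0.126).

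Fads2 was at 23.0, 30.6 and 15.0 CPM in KO+R and at 14.5 and 26.9 CPM in WT+R. These levels overlapped with untreated cells, although each library was lower than the untreated library of its number. In WT the 2 numbered pairs are too few to check the pairing. The log2 difference was -0.69 (-1.45 to 0.07, adjusted p = 0.456) in KO and -0.86 (-1.73 to 0.01, adjusted p = 0.407) in WT. Without the library labelled WT replicate 1 it was -1.11 in WT (adjusted p = 0.272), and called with the block (adjusted p = 0.0296). Fads1, in contrast, was at 60.0, 78.2 and 56.8 CPM in KO+R and 56.4 and 58.1 CPM in WT+R, over the range of untreated cells, with intervals of -0.44 to 0.43 in KO and -0.46 to 0.51 in WT. Fasn was at 165.4, 244.6 and 187.9 CPM in KO+R, beside 168.0, 238.5 and 187.7 CPM in KO, and at 99.3 and 165.1 CPM in WT+R. Its intervals were -0.47 to 0.49 in KO and -0.61 to 0.47 in WT.

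The estimate for Scd1 was closer to untreated cells than that for Scd2, but the 2 genes were not tested against each other. Scd1 was at 6.2, 21.9 and 7.3 CPM in KO+R, each below the untreated library of its number, and at 1.5 and 12.8 CPM in WT+R. The interval in WT was -1.85 to 1.91. The log2 difference in KO was -0.31 (SE 0.765, adjusted p = 0.935) and became 0.10 without KO replicate 2 and 0.02 without KO+R replicate 1. Elovl5 was above untreated cells, at 116.9, 118.8 and 128.9 CPM in KO+R and at 92.0 and 96.1 CPM in WT+R, with no overlap in either genotype, where 10.9% and 14% of all genes were higher in this way. The log2 difference in KO was 0.27 (0.01 to 0.53, adjusted p = 0.366). Srebf1, Acly and Acaca overlapped with untreated cells in both genotypes, at 106.0 to 132.8 CPM, 140.6 to 173.3 CPM and 24.8 to 59.7 CPM over the 5 rapamycin libraries.

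Among the 10 members, 2 were lower without overlap in KO+R against KO and 2 in WT+R against WT, against 13.2% and 14.7% of all tested genes. The median log2 difference was -0.14 in KO and -0.06 in WT, beside -0.02 and -0.01 for all genes. No member passed the interaction of rapamycin and genotype (adjusted p = 1.0 for all 10, smallest unadjusted p = 0.363). All 10 proliferation genes were below untreated cells in both genotypes, with medians of -1.35 in KO and -0.80 in WT. Of the 12 endothelial markers 4 were above untreated in WT+R (median -0.35) and 5 in KO+R (-0.03), 0 called. Endothelial markers summed to 10740 to 11260 CPM in WT+R against 12045 to 16005 CPM in WT. In KO+R they summed to 11928 to 13118 CPM against 12368 to 13829 CPM in KO. Mural cell markers summed to 566 to 708 CPM in WT+R against 40.7 to 204 CPM in WT, and to 75.1 to 173 CPM in KO+R against 34.4 to 63.2 CPM in KO. Not all of the list followed its sum. Of the 8 markers tested, 5 were above untreated in WT+R (median log2 difference 0.40, 1 called) and 6 in KO+R (0.22, 0 called). Their part in the results was not tested.

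**Figure D2:**
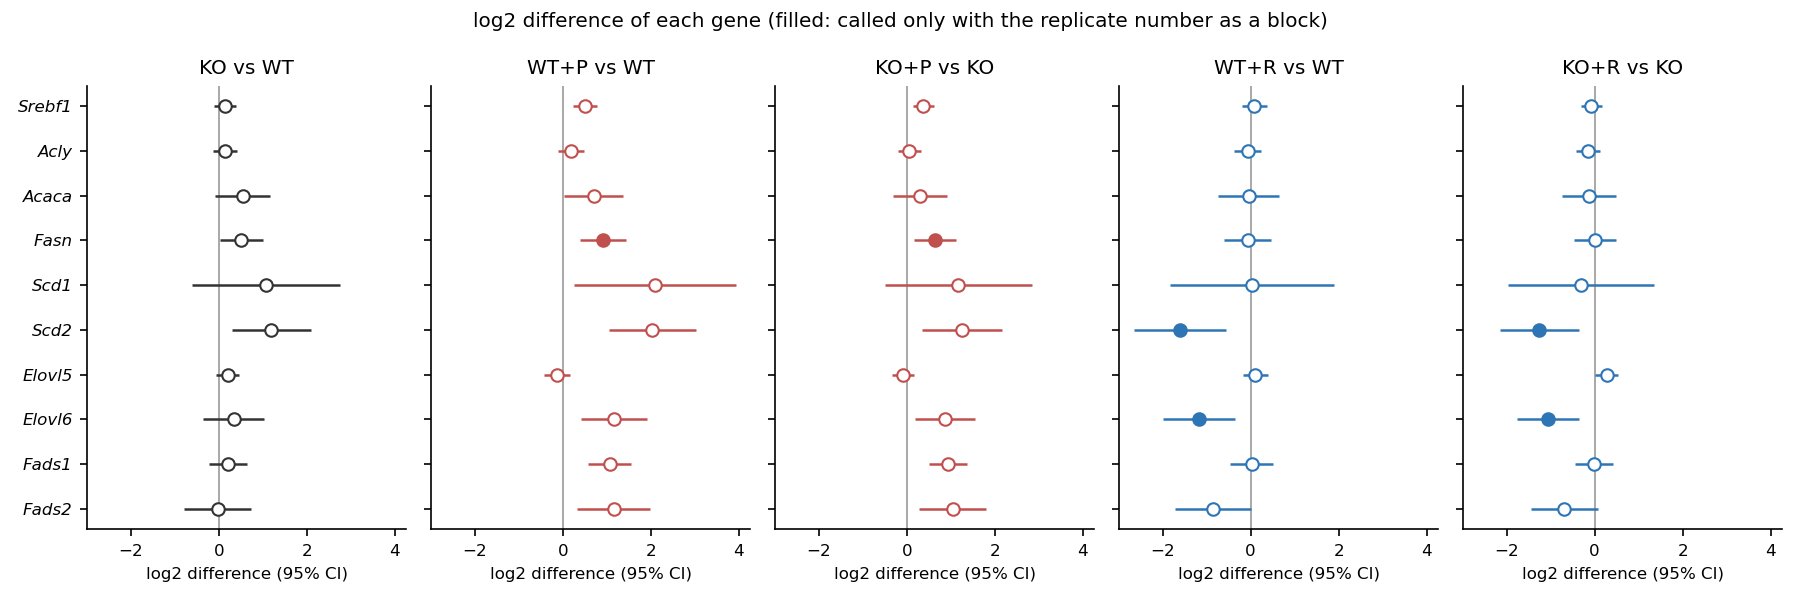
log2 difference of each gene in each comparison (points) with its 95% interval (bars) from edgeR. Filled points were called only with the replicate number as a block. Fasn is filled with propranolol and Scd2 and Elovl6 with rapamycin, in both genotypes.

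The third comparison set KO against WT cells. The level of 9 of the 10 mRNAs was above WT on average, with a median log2 difference of 0.28 beside -0.01 for all tested genes. None was called in edgeR's test, where 0.00674% of all genes were called and 0% were called higher. Nor was any called with the replicate block, where 0.182% of all genes were. At an unadjusted p below 0.05 there were 2 members, Fasn and Scd2, both higher, where 3.3% of all genes were higher. Scd2 had 2.29-fold the WT level, a log2 difference of 1.19 (0.29 to 2.09, adjusted p = 0.610). Its lowest KO library at 269.0 CPM was above its highest WT library at 181.5 CPM. Fasn was 1.43-fold higher, at 168.0 to 238.5 CPM against 111.9 to 163.8 CPM, a log2 difference of 0.52 (0.03 to 1.00, adjusted p = 0.775). With the block Fasn passed on p (adjusted p = 0.0473) but not on fold. Elovl5 was the third member without overlap, at 96.6 to 104.4 CPM in KO against 84.6 to 91.1 CPM in WT, where 6.69% of all genes were higher without overlap. The shift was not particular to the members. All 20 tested genes of cholesterol synthesis and uptake driven mainly by SREBP2 were above WT (median 0.29), as were all 10 proliferation genes (median 0.54), none called. Their part in the results was not tested.

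The library labelled WT replicate 1 held the lowest level of Acly, Acaca, Fasn, Scd1, Scd2, Elovl6, Fads1 and Fads2 among the 3 WT libraries. Without it the log2 difference between KO and WT was 1.05 for Scd2 (adjusted p = 0.869), 0.37 for Fasn, 0.33 for Acaca against 0.54 with it, and 0.61 for Scd1 against 1.07. Acaca and Scd1 overlapped between KO and WT. Srebf1 and Acly, with intervals of -0.10 to 0.40 and -0.13 to 0.41, and Fads2, with -0.78 to 0.73, also overlapped.

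Under rapamycin the difference in Scd2 between the genotypes was of like size. Scd2 was at 81.9 to 252.1 CPM in KO+R and 25.8 to 78.9 CPM in WT+R, a log2 difference of 1.54 (0.49 to 2.59, adjusted p = 0.576). Fasn had a log2 difference of 0.59 (0.05 to 1.14, adjusted p = 0.838) and Elovl5 of 0.37 (0.08 to 0.66, adjusted p = 0.725), both without overlap. In edgeR's test without the block 0% of all genes were called there, 0.0944% with the block and 0.268% with DESeq2, and 9.43% of all genes were higher without overlap, beside 3 of the 10 members. Under propranolol the KO and WT levels were closer, with a log2 difference of 0.41 (-0.59 to 1.42, adjusted p = 0.955) for Scd2. Scd2 was the only member without overlap there, where 7.8% of all genes were higher in this way, and 0% of all genes were called in edgeR's test without the block, 0.0876% with it and 0.217% with DESeq2.

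The last comparison set the drugs against each other, rapamycin over propranolol, and shares its libraries with those above. In KO cells 4 members were called lower in edgeR's test, Scd2, Elovl6, Fads1 and Fads2, where 4.08% of all genes were called in either direction and 2.51% lower. Scd2 was 5.71-fold lower (log2 difference -2.51, -3.45 to -1.58, adjusted p = 0.00803) and Elovl6 3.8-fold lower (-1.93, -2.64 to -1.21, adjusted p = 0.00796). Fads2 was 3.32-fold lower (-1.73, adjusted p = 0.0179) and Fads1 1.92-fold lower (-0.94, adjusted p = 0.0209). The calls of Fads1 and Fads2 were lost without KO+P replicate 1 (adjusted p = 0.0921 and 0.0643), KO+P replicate 2 (0.0812 and 0.0724), KO+R replicate 1 (0.0900 and 0.0697) or KO+R replicate 3 (0.0931 and 0.0815), while Scd2 and Elovl6 kept theirs. With the 2 groups fitted alone none of the 4 was called (adjusted p = 0.0582 for Scd2). Srebf1 passed on p (adjusted p = 0.0400) with a fold of 1.37, under the 1.5 needed. With the replicate block 6 members were called, with Fasn (-0.64, adjusted p = 0.0013) and Scd1 (-1.69, adjusted p = 0.0252) added, where 5.62% of all genes were called lower.

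In WT cells 3 members were called lower, where 0.815% of all genes were. With the replicate block 7 were, beside 2.88% of all genes, although 2 numbered pairs are too few to check the pairing. With the 2 groups fitted alone 0 were. Scd2 was 12.5-fold lower (-3.64, -4.85 to -2.43, adjusted p = 0.0102), from 606.3 and 699.3 CPM to 25.8 and 78.9 CPM. Elovl6 was 5.07-fold lower (-2.34, adjusted p = 0.0180) and Fads2 4.05-fold lower (-2.02, adjusted p = 0.0474). With 2 libraries a group, leaving 1 out assumes that the other varies like the remaining groups. None of the 3 was called without WT+P replicate 1 or without WT+R replicate 1, where Scd2 had log2 differences of -3.74 and -3.04 (adjusted p = 0.0509 and 0.122), and only Scd2 without WT+R replicate 2. Fads2 also lost its call (adjusted p = 0.0508 to 0.0667) without WT replicate 2 or 3, any KO or KO+R library, or KO+P replicate 1 or 2. Elovl5 was again the exception, above propranolol without overlap in both genotypes, where 11.7% of all genes in KO and 17.5% in WT were, with a log2 difference of 0.35 (0.10 to 0.61, adjusted p = 0.108) in KO.

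Other genes of lipid metabolism were taken from lists that leave out the members themselves. Of the genes that respond to SREBP2, mostly enzymes of cholesterol synthesis, 20 of 21 were tested and all 20 were above untreated cells with propranolol in both genotypes, with median log2 differences of 0.93 in KO and 0.97 in WT. None was called, while 10 were called higher in KO with the replicate block, beside 0.135% of all genes. Fdps, which makes farnesyl diphosphate, had 1.68 (adjusted p = 0.0576, or 0.00626 with the block) and Pmvk, phosphomevalonate kinase, 0.97 (0.0576, or 0.00894). With rapamycin 2 of the 20 were called lower in KO, beside 0.802% of all genes, Dhcr7 (-0.73, adjusted p = 0.0126), the last step of cholesterol synthesis, and Stard4 (-0.73, adjusted p = 0.0459), a sterol carrier. In WT+R against WT it was Dhcr7 alone (-1.06, adjusted p = 0.00507). The list medians were -0.37 and -0.28. Between the drugs, rapamycin over propranolol, 18 of the 20 were called lower in KO, beside 2.51% of all genes. In WT 13 of the 20 were, beside 0.815%. The medians there were -1.33 in each genotype.

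Of the genes that control SREBPs, 18 of 20 were tested and none was called with propranolol. Insig1, which holds the SREBP precursors in the endoplasmic reticulum and is itself an SREBP target, had a log2 difference of 2.22 in KO (adjusted p = 0.0576, or 0.0138 with the block) and 2.46 in WT (adjusted p = 0.0876). Srebf2, which encodes SREBP2, had 0.81 in KO (adjusted p = 0.188, or 0.0272 with the block) and 1.06 in WT (adjusted p = 0.131). With rapamycin Mlx, a partner of the carbohydrate response factor ChREBP, was called lower in KO (-0.73, adjusted p = 0.0256). Among the other partners of lipogenesis, 20 of 23 tested, none was called in the drug comparisons with untreated cells, and Slc25a1, the mitochondrial citrate carrier, had 0.59 in KO+P (adjusted p = 0.121, or 0.0272 with the block).

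No gene was called in edgeR's test for fatty acid activation and glycerolipid synthesis (19 of 19 tested), uptake and binding (13 of 14), oxidation (21 of 22) or the LXR targets (6 of 8) in any comparison of a drug with untreated cells. In KO+P the medians of these lists were 0.03, -0.07, -0.20 and -0.55. Acsl3, an acyl-CoA synthetase, had the smallest p of its list with propranolol (1.29 in KO, adjusted p = 0.145). Mfsd2a, the carrier of lysophosphatidylcholine with omega-3 chains at the blood-brain barrier, had the smallest of uptake and binding (3.39 in KO, adjusted p = 0.246). With rapamycin Slc27a1 and Pnpla2, a fatty acid transporter and a triglyceride lipase, had 0.86 each in KO (adjusted p = 0.0753 and 0.0793) and were called with the block (0.0275 and 0.00388).

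**Figure D3:**
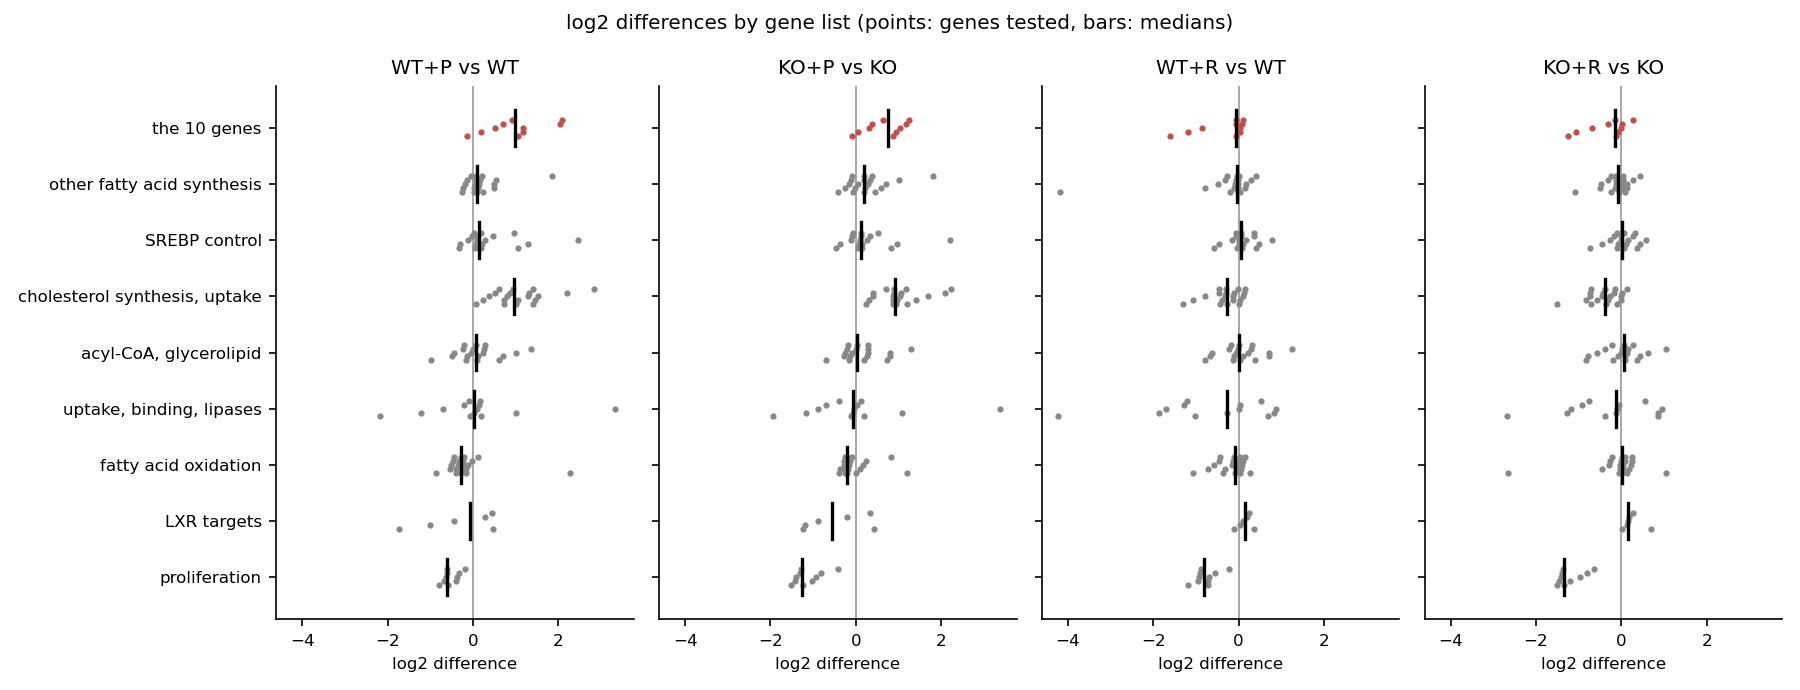
log2 difference of each tested gene of each list (points) and the list median (bars) in the comparisons of each drug with untreated cells. The 10 fatty acid genes and the SREBP2 targets (cholesterol synthesis and uptake) lie mostly above 0 with propranolol, with medians of 0.75 and 0.93 in KO, and the other lists of lipid metabolism have medians of -0.55 to 0.20 in KO.

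Across the 16 libraries the members followed a shared profile to different degrees. The Pearson r of each gene's log2 CPM with the mean of the 10 standardised profiles was 0.963 for Fasn, 0.947 for Scd2, 0.923 for Scd1 and 0.902 for Acaca, with the gene itself part of the mean. It was 0.755 for Acly, 0.689 for Srebf1 and -0.154 for Elovl5. Among the genes outside the 10 most like that mean were Idi1 (0.963), Lss (0.935) and Hmgcs1 (0.933), all of cholesterol synthesis, and Atp2a3 (0.924), a calcium pump. The 16 points share groups and cultures, so these values only describe the libraries. After centring within each replicate number the nearest included Hmgcs1 (0.959), Idi1 (0.958) and Atp2a3 (0.951).

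The reads of Srebf1 came mostly from the transcript Srebf1-201 (start at 60111468 on chromosome 11, GRCm39), which took 54.6 to 95.9% of the gene's estimated counts. Srebf1-203, with an annotated start inside the gene at 60098014, took most of the rest. Its share was 39.9, 9.60 and 8.07% in KO, 44.5, 10.2 and 15.7% in KO+P and 43.2, 6.14 and 2.65% in KO+R. In WT it was 9.24, 22.4 and 6.66%, in WT+P 10.1 and 9.68% and in WT+R 11.4 and 2.12%. The high shares were those of replicate 1 in all 3 KO groups, treated or not. Estimated shares of transcripts rest on the few reads that tell them apart.

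Scd1 made up a small part of the reads of Scd1 and Scd2 together. Its mean share was 3.77% in KO, 3.68% in KO+P and 6.88% in KO+R, and 3.85% in WT, 4.33% in WT+P and 9.69% in WT+R. The 3 KO+R libraries, at 5.59 to 8.01%, lay above the 3 KO libraries at 3.25 to 4.68% by counts, but not by TPM, at 6.34 to 9.04% against 3.88 to 6.76%. The WT groups overlapped, at 5.41 and 14.0% in WT+R and 1.41 to 7.00% in WT. The pair shared 253 sequences of 31 bases, 3.45% of those of Scd1, so reads from these stretches could be assigned to either.

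**Figure D4:**
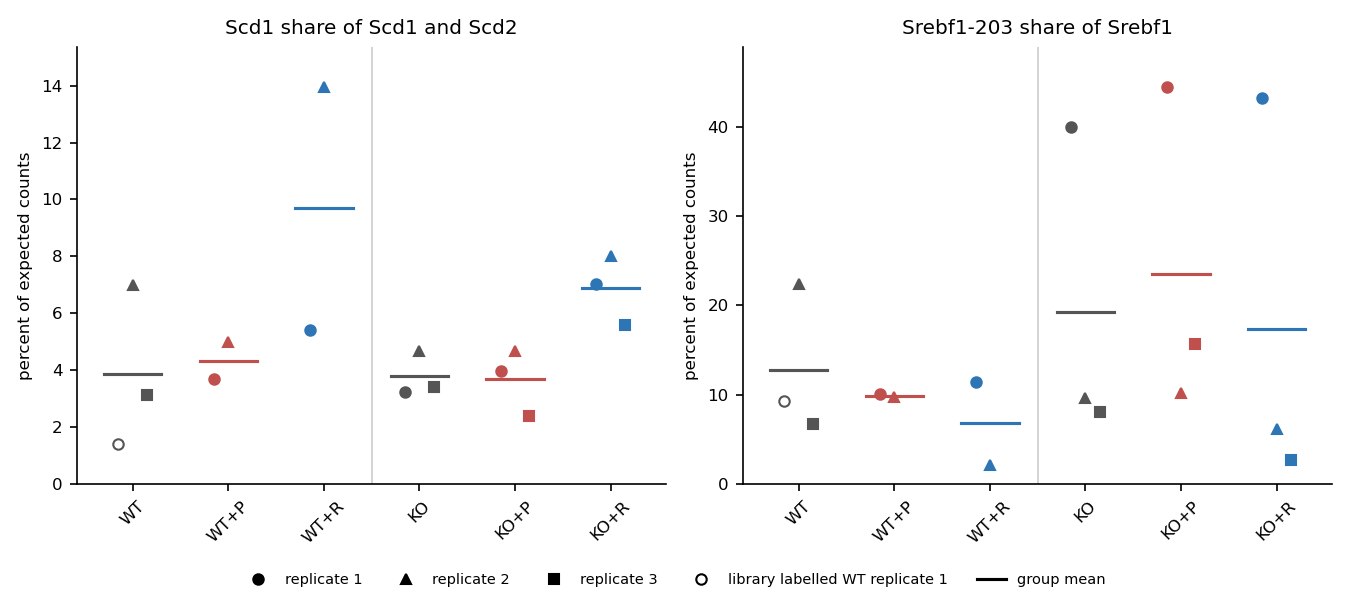
Scd1 as a percentage of the estimated counts of Scd1 and Scd2 (left) and Srebf1-203 as a percentage of those of Srebf1 (right) in each library. Markers stand for replicate numbers and bars for group means. By counts the Scd1 share is 5.59 to 8.01% in KO+R against 3.25 to 4.68% in KO, which overlap by TPM, and the Srebf1-203 share is near 40% only in replicate 1 of the KO groups.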

How the data were processed

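RNA-seq of mBMEC (poly-A, unstranded) was deposited as 16 per-library transcript tables, 1 per replicate. In these the authors give estimated counts and TPM per transcript. The submitters' processing notes name Salmon 1.5.2, Trim Galore 0.6.7, HTSeq 0.13.5, DESeq2 1.34.0 and R 4.2.2, and the role of each for these tables is not given in the sources used here. Of 140789 transcripts, 139544 (99.1%) were matched to GENCODE mouse release 39 (GRCm39). The remainder took 0.395 to 0.566% of the counts and was left out. Deposited expected counts were summed per gene and rounded. Depth was 18830000 to 26203000 estimated reads per library.

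The main test was edgeR 4.0.16 (limma 3.58.1, R 4.3.3), a quasi-likelihood fit over all 16 libraries with a mean per group, TMM scaling and filterByExpr, which kept 14838 genes. A call needed a Benjamini-Hochberg adjusted p below 0.05 and a fold above 1.5, or adjusted p alone for interactions. log2 differences carry 95% intervals. The code was tested on simulated counts. Alternatives were DESeq2 1.42.0, other scalings and filters, effective length offsets, unrounded counts, the compared groups alone, each library left out, and the replicate number as a block. In the comparisons among KO, KO+P and KO+R and of KO with WT, which have 3 same-numbered pairs each, every such pair deviated together from its group means (correlations 0.189 to 0.620), so the block is given there where it changes a call. The pairing comes from the data, since the labels give only the number. WT+P and WT+R have 2 pairs each, too few for this check, so all blocked values that involve them rest on unchecked pairing. Where nothing says that replicates were separate animals, p-values measure the spread between these cultures.

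All 10 members are named. From each list, called genes (at most 5) or else the 2 with the smallest p were named, for selected comparisons. The members and lists were chosen with earlier results of these data known. Promoters are from RefSeq (GRCm38.p6). Motifs were searched on both strands. Of the 5 genes outside the members with the highest Pearson r over the 16 libraries, on each of 2 scales, some are not reported here.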

Additional observations from a re-analysis of the deposited data

Results flagged for a closer look

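Srebf1 was flagged because its rapamycin effect had opposite signs in the 2 genotypes in every same-numbered pair, although a KO value was near 0. The 2 WT pairs, which include the library labelled WT replicate 1, are too few to check the pairing. The paired log2 differences were -0.00, -0.13 and -0.10 in KO and 0.14 and 0.07 in WT. The difference between the effects was -0.16 and did not pass edgeR's interaction test (adjusted p = 1.0).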

How the results depend on the processing

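The spread between replicates, as edgeR's biological coefficient of variation, was 32.3% without the replicate block and 19% with it. The same-numbered libraries correlated at 0.0323 to 0.693 over 36 pairs. With the replicate block the members called were 1 in KO+P against KO (0.142% of all genes called), 2 in KO+R against KO (4.98%), 1 in WT+P against WT (0.0809%), 2 in WT+R against WT (4.56%) and 7 in WT+R against WT+P (4.93%). The comparisons with WT+P or WT+R rest on 2 numbered pairs, too few to check the pairing. The block together with leaving out the library labelled WT replicate 1, chosen after seeing the data, gave 1 in KO+P against KO, 2 in KO+R against KO, 3 in WT+R against WT, 1 in KO+R against WT+R and 7 in WT+R against WT+P. The share of all genes called was not computed for that setting, so these counts have no background beside them.

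DESeq2 called 1 in KO+P against KO (0.577% of all genes), 2 in WT+P against WT (0.43%), 1 in WT+R against WT (2.01%) and 5 in WT+R against WT+P (2.33%). DESeq2 with the block, also added after seeing the data, called 1 in KO against WT (1.43%), 6 in KO+P against KO (3.39%), 2 in KO+R against KO (4.08%), 6 in WT+P against WT (0.566%), 3 in WT+R against WT (3.56%), 2 in KO+R against WT+R (1.11%) and 7 in WT+R against WT+P (4.52%). Without a filter on low counts 1 was called in KO+P against KO and 2 in WT+P against WT. The share of all genes called was not computed without the filter or with the compared groups alone. With the compared groups alone, and so fewer libraries, 0 were called in KO+R against KO+P and 0 in WT+R against WT+P. With effective length offsets Fads2 was not called in KO+R against KO+P (adjusted p = 0.0505) or in WT+R against WT+P (0.0877). Leaving out 1 library gave 0 to 1 in KO+P against KO and 2 to 4 in KO+R against KO+P. Without KO+P replicate 3 the share of all genes called was 2.24% in KO+P against KO and 7.92% in KO+R against KO+P. With all libraries it was 0.00674% and 4.08%. Shares were not computed without any other library, so a change in members cannot be told from one over all genes. For WT+P and WT+R, leaving 1 out can leave 1 library in a group, so no range is given. The causes were not tested.

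Among the 55 log2 differences of at least 0.25 in size, those recomputed, Scd1 alone changed sign, between -1.10 and 0.10 in KO+R against KO and between -0.11 and 3.00 in KO+R against WT+R, when 1 library was left out. Scaling by library size moved the median of all genes to -0.11 in KO+R against KO+P and to -0.12 in WT+R against WT+P. By TPM, the mean share of Scd1 was 6.13% in WT+P, 5.33% in KO and 14.7% in WT+R, where counts gave 9.69%, and the KO and KO+R shares overlapped. The mean share of Srebf1-203 was 9.42% in WT+P by TPM and 9.87% by counts. The lowest counts were 33 reads for Scd1 and 35 for Elovl6.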
